A study of Mus musculus with 12 samples.

Results

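Proteasome subunit genes were taken from the array as the probe sets that carry a single gene symbol starting with Psma, Psmb, Psmc, Psmd or Psme and a digit, with the immunoproteasome genes Psmb8, Psmb9 and Psmb10 left out. The rule found 39 genes with 58 probe sets, of 17097 genes with 28898 probe sets that carry 1 symbol. Of these, 38 genes with 52 probe sets passed the filter on dim values and were tested, among 12560 genes in all. The member that did not pass was Psmb11, which encodes a catalytic subunit made in the thymus, and its group means lay between 13.1 and 14.5 intensity units. The 38 genes comprise 7 of the alpha ring, 7 of the beta ring, 5 ATPases of the base, 3 other base subunits, 8 lid subunits, 2 assembly chaperones of the base, 3 activators and 3 genes outside the constitutive particle. Those 3 are Psma8, which encodes an alpha subunit of the testis, Psmc3ip, whose product takes part in meiotic recombination, and Psme3ip1, whose product binds the activator PSME3. Psmc6, Psmd10 and Psme4 were not analysed here.

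The proteasome is the protease that degrades most proteins tagged with ubiquitin. Its barrel-shaped core is a stack of outer alpha rings, which gate entry, and inner beta rings, of which the subunits encoded by Psmb5, Psmb6 and Psmb7 cut peptide bonds. A regulatory particle caps the core: its lid removes ubiquitin, and its base unfolds the substrate with a ring of ATPases. Alternative caps, the activators, open the gate without ubiquitin, and in blood cells interferon induces a pair of them together with the immunoproteasome subunits, which supply peptides to MHC class I.

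Total RNA from mouse cells was profiled on 12 arrays, 3 in each of 4 groups. The groups were leukaemia lines expressing Trib1 on the Ts1Cje background (Ts1Cje + Trib1 WT in the labels, Ts1Cje Trib1 here), leukaemia lines expressing Trib1 on the B6 background (B6 + Trib1 WT in the labels, B6 Trib1 here), Ts1Cje hematopoietic cells and wild-type B6 hematopoietic cells. In Ts1Cje mice a stretch of chromosome 16, the counterpart of a part of human chromosome 21, is present in 1 additional copy. Trib1 is a pseudokinase that promotes acute myeloid leukaemia. Cells of all 4 groups had been grown with 10% serum and 5 ng/ml of the cytokine IL-3, and 100 ng of RNA was labelled per array. The labels give neither the age of the mice, the means by which Trib1 was expressed nor how many lines, mice or cultures stand behind a group, so the spread behind each p-value is that between arrays and may be technical. Trib1 and the leukaemic state go together in every comparison of a line with cells, and their parts cannot be told apart. In bulk RNA, fewer cells of a type and less RNA per cell cannot be told apart either.

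Values are intensities on a linear scale with array medians of 30.5 to 32.0 and array maxima of 8041 to 8685, and the number of arrays limits their precision. Differences are log2 differences of intensity + 15 from limma, given with their standard error (SE). A gene was called at an adjusted p under 0.05 over all 12560 genes. All 8 markers of hematopoietic cells passed the filter, and their summed intensity was 12893 to 13521 in Ts1Cje Trib1 lines, 13906 to 13937 in B6 Trib1 lines, 13974 to 14293 in Ts1Cje cells, against 13811 to 14117 in B6 cells. Of the stroma markers 2 of 5 were kept, Sparc and Dcn. These 2 summed to 68.0 to 77.6 in Ts1Cje Trib1 lines, 74.8 to 80.4 in B6 Trib1 lines, 166 to 209 in Ts1Cje cells, against 348 to 385 in B6 cells. The filter's threshold for a single probe set was 22.0 to 23.5. Dcn averaged 30.1 to 31.1 over the groups. Sparc averaged 41.2 in Ts1Cje Trib1 lines, 45.7 in B6 Trib1 lines, 158 in Ts1Cje cells and 334 in B6 cells. Marker sums of blood cell types differed between groups. Summed over 10 neutrophil granule genes, all kept, the intensity was 10810.3 to 11079.7 in Ts1Cje Trib1 lines, 19474 to 19807 in B6 Trib1 lines, 36297 to 37105 in Ts1Cje cells, against 23451 to 23782 in B6 cells. For mast cells and basophils, with 6 of 7 markers kept, the sum was 21287 to 21976 in Ts1Cje Trib1 lines, 18777 to 19028 in B6 Trib1 lines, 4682 to 4952 in Ts1Cje cells, against 2839 to 2885 in B6 cells. For B cells, with 6 of 7 kept, it was 165 to 183 in Ts1Cje Trib1 lines, 157 to 185 in B6 Trib1 lines, 1518 to 1692 in Ts1Cje cells, against 4192 to 4393 in B6 cells, and for monocytes and macrophages it was 1085 to 1160.2 in Ts1Cje Trib1 lines, 2788 to 2814 in B6 Trib1 lines, 8998 to 9274 in Ts1Cje cells, against 5433 to 5629.9 in B6 cells. The neutrophil, mast cell and monocyte sums did not overlap between any 2 groups compared below, the B cell sums overlapped between the Trib1 lines, and the part of these lists in the results was not tested.

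**Figure D1:**
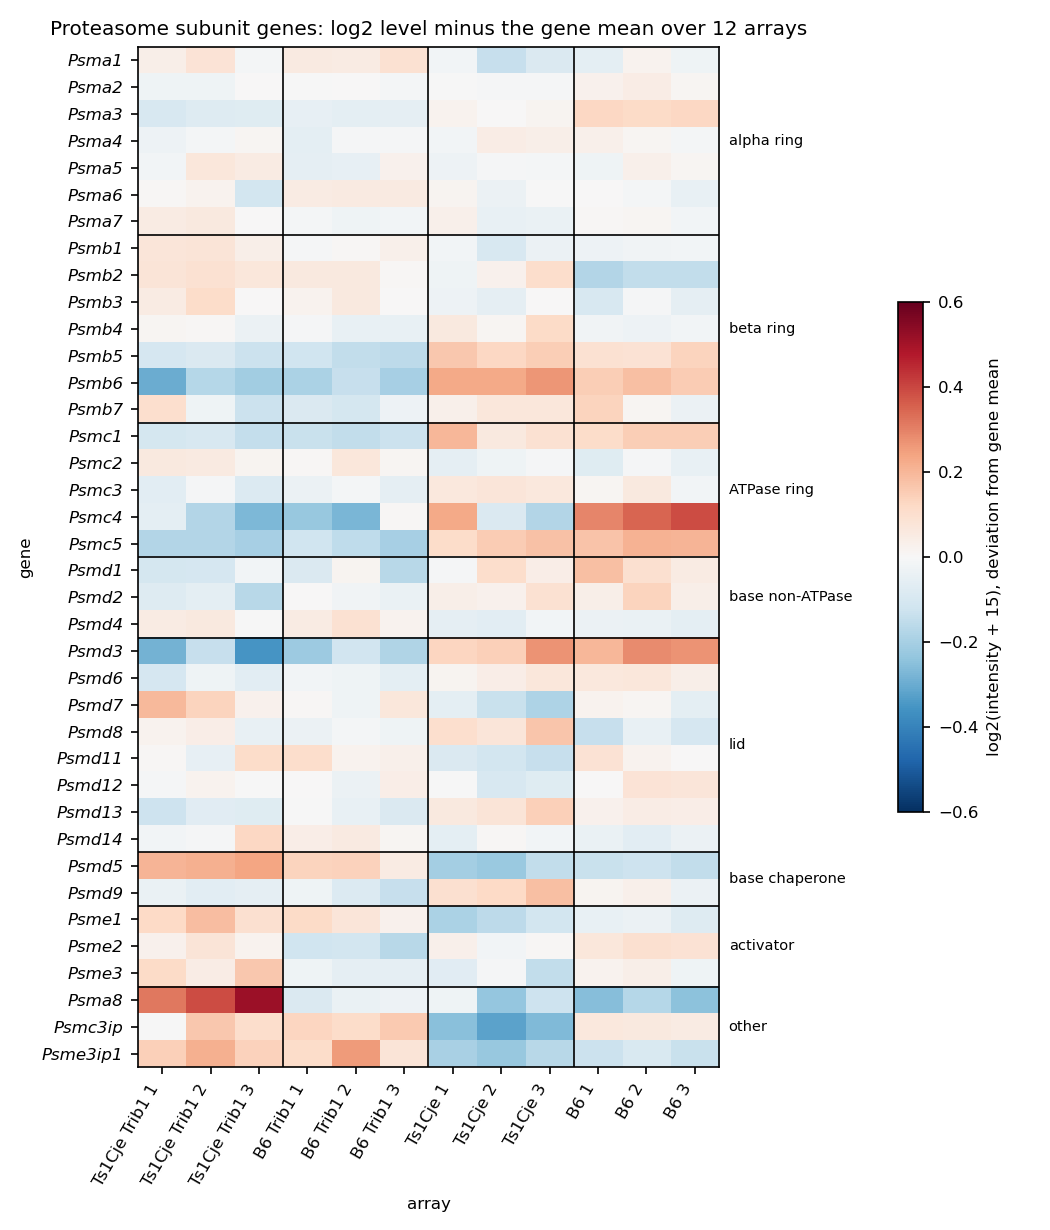
Deviation of each of the 38 proteasome subunit genes (rows, by role) from its mean over the 12 arrays, as log2(intensity + 15), in each array (columns, by group). Most rows are pale, while Psmb5, Psmb6, Psmc1, Psmc5 and Psmd3 are lower in all 6 arrays of the Trib1 lines than in the 6 arrays of cells, and Psmd5, Psme1 and Psme3ip1 are higher.

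Subunit genes differed little between the groups in size. No member differed by 2-fold or more in any contrast. Of all 12560 genes, 851 did so between B6 Trib1 lines and B6 cells and 1284 between Ts1Cje Trib1 lines and Ts1Cje cells. Between Ts1Cje and B6 cells 165 did so, between the Trib1 lines 82, and in the interaction 414. These last shares are so small that the absence of a member there says little about the members. The median absolute log2 difference of the 38 genes was 0.08 between B6 Trib1 lines and B6 cells, beside 0.18 for all genes, and 0.12 between Ts1Cje Trib1 lines and Ts1Cje cells, beside 0.19. For Ts1Cje minus B6 cells it was 0.06 beside 0.14, and for Ts1Cje Trib1 minus B6 Trib1 lines 0.03 beside 0.07. A difference of at least 1.2-fold was seen in 6 members between B6 Trib1 lines and B6 cells (35.5% of all genes) and in 8 between Ts1Cje Trib1 lines and Ts1Cje cells (41.1%). It was seen in 2 between Ts1Cje and B6 cells (25.8%), 1 between the Trib1 lines (10.5%) and 3 in the interaction (35.1%). Among all genes with a mean intensity of at least 500, the share called was 67.3% for B6 Trib1 minus B6, 73.7% for Ts1Cje Trib1 minus Ts1Cje, 61.6% for Ts1Cje minus B6, 25.7% for Ts1Cje Trib1 minus B6 Trib1 and 55% for the interaction. A set of 10 genes was called in none of the 4 contrasts or their interaction: Psma2, Psma4, Psma5, Psma6 and Psma7 of the alpha ring, Psmb3, Psmb4 and Psmb7 of the beta ring, the ATPase gene Psmc2 and the deubiquitinase gene Psmd14. With median centring, Psma4, Psma6, Psma7, Psmb3, Psmb4, Psmc2 and Psmd14 passed in at least 1 of them. Other probe sets of Psma7 and Psmb3 did pass when each probe set was fitted on its own, in both comparisons of a Trib1 line with cells. The second probe set of Psmb3 differed by -0.30 (adjusted p = 8.47e-05) between B6 Trib1 lines and B6 cells. It also passed between Ts1Cje and B6 cells, at -0.12 (adjusted p = 0.0391).

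**Figure D2:**
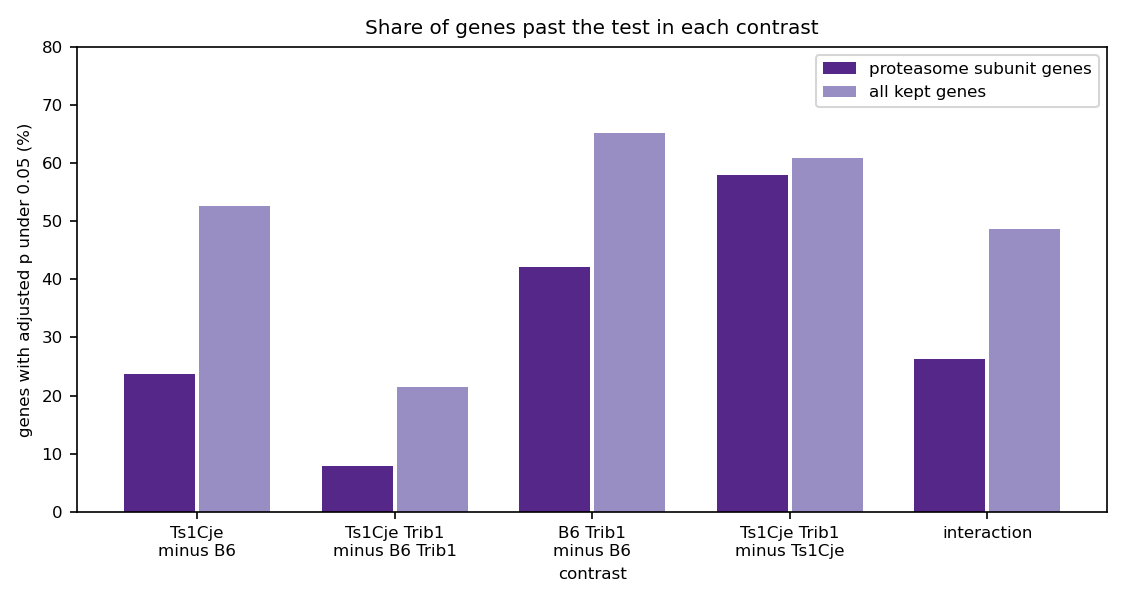
Percent of genes with an adjusted p under 0.05 in each contrast, for the 38 proteasome subunit genes (dark bars) and for all 12560 kept genes (light bars). The dark bar is the shorter in all 5 contrasts, by least for Ts1Cje Trib1 minus Ts1Cje (57.9% beside 60.8%).

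The first question was how subunit genes differ between leukaemia lines and hematopoietic cells. Between B6 Trib1 lines and B6 cells, 6 of the 38 genes were higher and 10 lower, 42.1% in all, beside 65.2% of all genes (34.1% higher and 31.1% lower). Between Ts1Cje Trib1 lines and Ts1Cje cells, 10 were higher and 12 lower, 57.9% in all, beside 60.8% of all genes (34.1% higher and 26.8% lower). The median log2 difference of the members was -0.03 in the first comparison and 0.01 in the second, beside 0.03 and 0.02 for all genes. These comparisons share no array. In both of them 7 members fell, which is 70.0% of those lower on the B6 background and 58.3% of those lower on the Ts1Cje background, and 4 members rose, which is 66.7% and 40% of those higher. Among all genes, 19.7% fell in both and 19.4% rose in both, beside 18.4% and 10.5% of the members. Of all genes, 2471 fell in both, from 3907 lower on the B6 background and 3364 lower on the Ts1Cje background. Likewise 2438 rose in both, from 4283 and 4278 higher. Against these, the members' shares were larger on the B6 background and smaller on the Ts1Cje background. No member was called in opposite directions. Without B6 replicate 3, 3 members were higher in B6 Trib1 lines than in B6 cells. The 7 that fell were Psma3, Psmb5, Psmb6, Psmc1, Psmc5, Psmd3 and Psmd6, all of them constitutive subunits, as are 30 of the 38 members. The 4 that rose were Psma8, Psmd5, Psme1 and Psme3ip1, none of which is a constitutive subunit. That split depended on the scaling. With median centring, the constitutive subunit genes Psma1, Psmb1, Psmd7 and Psmd11 were also called higher in both comparisons.

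By role, the 30 constitutive subunits gave 2 higher and 9 lower between B6 Trib1 lines and B6 cells, and 4 higher and 11 lower between Ts1Cje Trib1 lines and Ts1Cje cells. The shares of all genes to set beside these and the counts by role are 34.1% higher and 31.1% lower in the first comparison, and 34.1% and 26.8% in the second. The 5 ATPase genes gave 0 higher and 3 lower in each comparison. Of the 8 lid genes, 0 were higher and 2 lower on the B6 background, and 2 higher and 4 lower on the Ts1Cje background. Of the 7 alpha ring genes, 0 were higher and 1 lower on the B6 background, and 1 higher and 1 lower on the Ts1Cje background, and the 7 beta ring genes gave 1 higher and 2 lower in each. Of the 3 base subunits that are no ATPases, 1 was higher and 1 lower on the B6 background, and 0 higher and 1 lower on the Ts1Cje background. The scale mattered for these counts. Centring each array on its median, chosen as an alternative, moved the median of all genes in B6 Trib1 minus B6 from 0.03 to 0.15, and the members' counts there to 18 higher and 7 lower, or 47.4% and 18.4%, beside 53.5% and 21.3% of all genes. Called in the same direction without scaling, with quantile normalization and with median centring were 5 members higher and 7 lower on the B6 background (31.9% and 21.3% of all genes), and 10 higher and 9 lower on the Ts1Cje background (33.1% and 25% of all genes).

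Among the catalytic subunits, Psmb6 and Psmb5 were lower in the Trib1 lines. Psmb6, which encodes the caspase-like site, read 1133, 1239.5 and 1208 in Ts1Cje Trib1 lines against 1641, 1641 and 1679.7 in Ts1Cje cells. On the B6 background it read 1224, 1269.8 and 1216 in B6 Trib1 lines against 1551, 1586 and 1554 in B6 cells. Every array of a line was below every array of cells, with log2 differences of -0.47 (SE 0.04, adjusted p = 1.61e-07) on the Ts1Cje background and -0.34 (SE 0.04, adjusted p = 6.63e-06) on the B6 background. Psmb5 encodes the chymotrypsin-like site, the main target of proteasome inhibitors used in myeloma. It read 1698, 1712 and 1662 in Ts1Cje Trib1 lines against 2040.1, 1985 and 2019 in Ts1Cje cells, and 1673, 1645 and 1631 in B6 Trib1 lines against 1943, 1937 and 1998 in B6 cells. The groups did not overlap, and the log2 differences were -0.25 (SE 0.03, adjusted p = 1.51e-05) and -0.25 (SE 0.03, adjusted p = 2.39e-05). Psmb7, the trypsin-like site, did not pass. It read 1654, 1517 and 1412 in Ts1Cje Trib1 lines against 1579, 1617 and 1617 in Ts1Cje cells, and 1454, 1435 and 1512 in B6 Trib1 lines against 1693, 1555 and 1505 in B6 cells. The arrays of lines and cells overlapped, and the differences of -0.07 (95% interval -0.18 to 0.04, adjusted p = 0.293) and -0.11 (-0.22 to 0.0027, adjusted p = 0.108) did not pass. Whether Psmb7 differs from Psmb5 and Psmb6 in its response was not tested.

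The promoters of genes that fell, and of Psmd5, which rose, show which letters lie before their start sites. Sequences are from RefSeq on GRCm38.p6, 250 bases up to the base before the annotated start, and capitals mark each match, on either strand, to the antioxidant response element TGANNNNGC, which NFE2L1 and NFE2L2 bind, the NF-Y box CCAAT, the GC box GGGCGG, the E-box CACGTG, the nuclear respiratory factor site or the ETS site CCGGAAG. Psmb6 and Psmb5 each hold 1 antioxidant response element.
Psmb6 (chr11:70525107-70525356, plus strand): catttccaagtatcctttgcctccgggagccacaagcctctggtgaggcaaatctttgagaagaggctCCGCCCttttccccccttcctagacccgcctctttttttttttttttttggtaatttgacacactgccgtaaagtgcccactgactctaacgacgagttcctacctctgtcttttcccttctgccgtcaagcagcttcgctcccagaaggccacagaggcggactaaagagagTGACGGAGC
Psmb5 (chr14:54617996-54618245, minus strand): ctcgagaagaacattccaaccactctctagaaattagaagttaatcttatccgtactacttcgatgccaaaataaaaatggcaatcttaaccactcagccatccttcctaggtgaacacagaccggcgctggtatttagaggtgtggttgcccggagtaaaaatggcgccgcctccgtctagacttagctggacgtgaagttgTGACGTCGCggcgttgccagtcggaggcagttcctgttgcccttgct
Of the ATPase genes, Psmc5 holds a nuclear respiratory factor site and a GC box, and Psmc1 an NF-Y box and an ETS site.
Psmc5 (chr11:106255935-106256184, plus strand): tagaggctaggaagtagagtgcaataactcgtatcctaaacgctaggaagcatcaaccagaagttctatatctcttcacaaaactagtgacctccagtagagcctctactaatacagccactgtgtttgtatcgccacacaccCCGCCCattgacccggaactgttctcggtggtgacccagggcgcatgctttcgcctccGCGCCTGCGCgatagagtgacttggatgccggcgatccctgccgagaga
Psmc1 (chr12:100109952-100110201, plus strand): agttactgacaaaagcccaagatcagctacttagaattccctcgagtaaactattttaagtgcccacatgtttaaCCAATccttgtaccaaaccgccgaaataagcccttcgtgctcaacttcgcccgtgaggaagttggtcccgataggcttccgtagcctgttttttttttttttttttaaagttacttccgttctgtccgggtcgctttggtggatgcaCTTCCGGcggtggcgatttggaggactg
Psma3 of the alpha ring holds an NF-Y box and a nuclear respiratory factor site, and Psmd5 holds 1 antioxidant response element, which overlaps the first of its 2 GC boxes.
Psma3 (chr12:70974373-70974622, plus strand): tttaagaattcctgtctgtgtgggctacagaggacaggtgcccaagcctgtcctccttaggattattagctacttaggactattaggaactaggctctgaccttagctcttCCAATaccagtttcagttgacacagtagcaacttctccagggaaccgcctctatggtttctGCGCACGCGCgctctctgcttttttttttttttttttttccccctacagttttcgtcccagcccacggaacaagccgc
Psmd5 (chr2:34870963-34871212, minus strand): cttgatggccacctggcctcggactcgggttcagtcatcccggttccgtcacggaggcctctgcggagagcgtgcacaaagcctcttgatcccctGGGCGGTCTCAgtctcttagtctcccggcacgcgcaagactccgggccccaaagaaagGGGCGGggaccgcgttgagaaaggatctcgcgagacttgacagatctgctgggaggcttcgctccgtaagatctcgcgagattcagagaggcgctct

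Over windows of 300 bases, from 250 before to 50 after the start, 32 of the 39 genes had 36 promoters in the table, beside 32851 promoters in all. The ETS site was in 36.1% of the members' promoters and 8.86% of all promoters, and the nuclear respiratory factor site in 16.7% and 4.60%. The GC box was in 55.6% and 35.7%, the antioxidant response element in 58.3% and 41.3%, the E-box in 11.1% and 7.15%, and the NF-Y box in 38.9% and 37.4%. With a response element longer by an A at its end, the shares were 8.33% and 13.0%. A match describes letters in a window and was not tested as a binding site. Of the genes printed above that fell, Psmc1 holds an ETS site in its 250 bases, while Psmb5, Psmb6, Psmc5 and Psma3 hold none there. Psmd6 and Psmd3 fell too and are not printed. Psmd6 holds an ETS site there, and Psmd3 had no promoter in the table.

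In the regulatory particle, the ATPase genes Psmc5 and Psmc1 and the lid gene Psmd3 were lower in the Trib1 lines. Psmc5 read 1021, 1022 and 1002 in Ts1Cje Trib1 lines against 1249, 1283 and 1305 in Ts1Cje cells, and 1061, 1036 and 1002 in B6 Trib1 lines against 1304, 1335 and 1334 in B6 cells. No array of a line reached any array of cells, and the log2 differences were -0.33 (SE 0.04, adjusted p = 1.92e-06) on the Ts1Cje background and -0.35 (SE 0.04, adjusted p = 1.31e-06) on the B6 background. Psmc1, another ATPase of the ring that unfolds substrates, read 847, 852 and 824 in Ts1Cje Trib1 lines against 1048, 950.3 and 970.2 in Ts1Cje cells, and 829.6, 820.1 and 833 in B6 Trib1 lines against 984, 1009 and 1011 in B6 cells. Its groups did not overlap either, with differences of -0.23 (SE 0.04, adjusted p = 0.000193) and -0.27 (SE 0.04, adjusted p = 5.57e-05). Psmd3, a scaffold subunit of the lid, read 544, 605 and 519 in Ts1Cje Trib1 lines against 729.9, 737 and 807 in Ts1Cje cells, and 571, 614 and 587 in B6 Trib1 lines against 769, 816 and 806 in B6 cells. All 6 arrays of lines lay below all 6 arrays of cells, with differences of -0.44 (SE 0.06, adjusted p = 1.53e-05) and -0.42 (SE 0.06, adjusted p = 2.77e-05). These 3 calls and those of Psmb5 and Psmb6 held under all 3 scalings on both backgrounds.

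Smaller falls were seen in Psma3 and Psmd6. Psma3, of the alpha ring, averaged 2589.8 ± 20.4 in Ts1Cje Trib1 lines against 2768 ± 17.2 in Ts1Cje cells, and 2642 ± 10 in B6 Trib1 lines against 2981 ± 10.5 in B6 cells (SD, n = 3 each). Its differences were -0.10 (SE 0.03, adjusted p = 0.0145) and -0.17 (SE 0.03, adjusted p = 0.000254). Psmd6, of the lid, differed by -0.10 (SE 0.03, adjusted p = 0.0185) and -0.09 (SE 0.03, adjusted p = 0.0416), and neither gene was called in both comparisons under every scaling. With median centring, on the B6 background, Psmd6 had the opposite sign at 0.03 (adjusted p = 0.573), and Psma3 was at -0.06 (adjusted p = 0.187). The second probe set of Psmd6 gave -0.50 (adjusted p = 0.000217) on the B6 background, so the size of its fall depended on the probe set. The ATPase gene Psmc4 read 1739.8, 1684 and 2047 in B6 Trib1 lines against 2503, 2603 and 2683 in B6 cells, which do not overlap, with a difference of -0.51 (SE 0.10, adjusted p = 0.000477). On the Ts1Cje background it read 1961, 1802 and 1688 in Ts1Cje Trib1 lines against 2386, 1922 and 1803 in Ts1Cje cells, which do overlap, with a difference of -0.16 (SE 0.10, adjusted p = 0.184). Its second probe set gave -0.11 (adjusted p = 0.0196) on the B6 background.

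**Figure D3:**
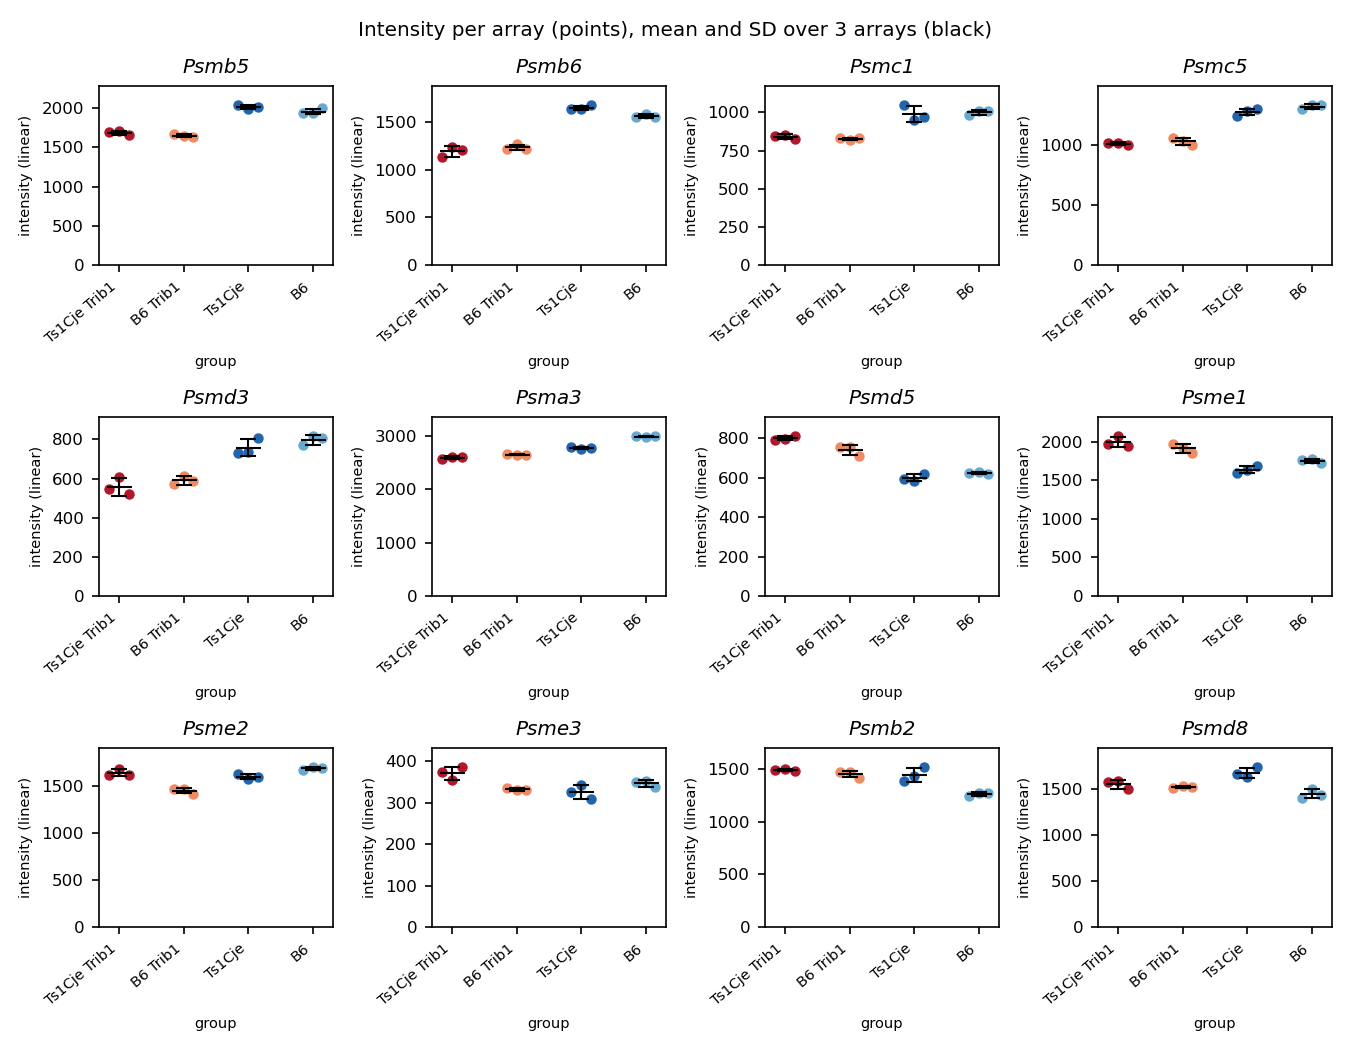
Intensity of selected proteasome subunit genes in each array (points), by group, with the group mean (bar), on linear axes. Psmb5, Psmb6 and Psmc5 sit lower in both Trib1 lines than in both kinds of cells, Psmd5 sits higher, and Psme2 is lowest in B6 Trib1 lines, at 1417 to 1470 intensity units.

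Psmd5 rose in the Trib1 lines. Its product is a chaperone that holds ATPases of the base during assembly and leaves before the particle is complete. It read 792, 798 and 810.3 in Ts1Cje Trib1 lines against 594, 585 and 618 in Ts1Cje cells, and 754, 757 and 709 in B6 Trib1 lines against 625, 629 and 618 in B6 cells. All arrays of lines were above all arrays of cells, and the differences were 0.41 (SE 0.04, adjusted p = 3.87e-07) on the Ts1Cje background and 0.24 (SE 0.04, adjusted p = 8.88e-05) on the B6 background. The other base chaperone, Psmd9, read 279, 274 and 277 in Ts1Cje Trib1 lines against 308, 314 and 328 in Ts1Cje cells, without overlap and with a difference of -0.18 (SE 0.04, adjusted p = 0.00116). On the B6 background the difference was -0.08 (SE 0.04, adjusted p = 0.0779) and the arrays overlapped. With its probe sets averaged, the Ts1Cje difference of Psmd9 was -0.07 (adjusted p = 0.152).

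The activator genes Psme1, Psme2 and Psme3 each gave a different set of calls. Psme1 and Psme2 encode the subunits of the activator that interferon induces, and Psme3 encodes a nuclear one. Psme1 read 1975, 2071 and 1944 in Ts1Cje Trib1 lines against 1590.1, 1629.5 and 1682 in Ts1Cje cells, and 1969, 1915 and 1852 in B6 Trib1 lines against 1761, 1774 and 1719 in B6 cells. The lines were above the cells in every array, with differences of 0.29 (SE 0.04, adjusted p = 2.36e-05) and 0.13 (SE 0.04, adjusted p = 0.0142). Without B6 replicate 3 or B6 Trib1 replicate 1 the second of these did not pass, at 0.11 and 0.10. Psme2 read 1619, 1680.0 and 1613 in Ts1Cje Trib1 lines against 1625, 1571 and 1598 in Ts1Cje cells, and 1462, 1469.9 and 1417 in B6 Trib1 lines against 1667, 1698 and 1688 in B6 cells. On the B6 background lines and cells were apart, with lower values in the lines and a difference of -0.21 (SE 0.03, adjusted p = 0.000113). On the Ts1Cje background the arrays overlapped, with a difference of 0.03 (SE 0.03, adjusted p = 0.408) and a 95% interval of -0.03 to 0.10. Psme3 read 373, 355 and 386 in Ts1Cje Trib1 lines against 327, 342 and 309 in Ts1Cje cells, without overlap and with a difference of 0.18 (SE 0.04, adjusted p = 0.00266). On the B6 background it differed by -0.06 (SE 0.04, adjusted p = 0.263), and by -0.17 (adjusted p = 0.0226) when its probe sets were averaged. Summed over the 8 kept of 10 genes of the interferon response, the intensity was 1957 to 2068 in Ts1Cje Trib1 lines, 1537 to 1611 in B6 Trib1 lines, 1393 to 1445 in Ts1Cje cells, against 1672 to 1742 in B6 cells. These genes were mixed, with 5 called higher and 3 lower in Ts1Cje Trib1 lines than in Ts1Cje cells. On the B6 background 4 were higher and 4 lower in the lines. Usp18 averaged 945 in Ts1Cje Trib1 lines against 184 in Ts1Cje cells, while Irf1 averaged 300 against 553. The part of this response in Psme1 and Psme2 was not tested.

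Of the members outside the constitutive particle, Psme3ip1 was higher in both lines. It read 775, 815 and 773 in Ts1Cje Trib1 lines against 609, 595 and 621 in Ts1Cje cells, and 757, 839 and 739 in B6 Trib1 lines against 639, 657 and 637 in B6 cells. The groups did not overlap, with differences of 0.36 (SE 0.05, adjusted p = 1.22e-05) and 0.27 (SE 0.05, adjusted p = 0.000263). Psma8 was dim, at 40.8, 43.8 and 49.1 in Ts1Cje Trib1 lines against 29.1, 23.2 and 26.2 in Ts1Cje cells, and 27.2, 28.7 and 29.0 in B6 Trib1 lines against 22.6, 24.8 and 22.9 in B6 cells. Its lines were above its cells without overlap, with differences of 0.53 (SE 0.06, adjusted p = 2.29e-06) and 0.17 (SE 0.06, adjusted p = 0.0205) that the added 15 units draw towards 0, and the second was lost with quantile normalization, at 0.14 (adjusted p = 0.07). Without B6 replicate 1, B6 replicate 3, B6 Trib1 replicate 2 or B6 Trib1 replicate 3 it did not pass either, at 0.16 in each case. Psmc3ip read 183, 207 and 199 in Ts1Cje Trib1 lines against 152, 144 and 151 in Ts1Cje cells, without overlap and with a difference of 0.36 (SE 0.04, adjusted p = 4.75e-06), and on the B6 background its difference was 0.07 (SE 0.04, adjusted p = 0.14). That second difference passed with quantile normalization, at 0.18 (adjusted p = 0.00379), and with median centring, at 0.19 (adjusted p = 0.00208).

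Further calls were made on 1 background alone. Psmb2, a beta subunit with no cutting site, read 1471, 1470.3 and 1417 in B6 Trib1 lines against 1245, 1273 and 1270.4 in B6 cells, without overlap and with a difference of 0.20 (SE 0.04, adjusted p = 0.000558). Psmd7, a lid subunit that pairs with the deubiquitinase PSMD14, read 819, 784 and 727 in Ts1Cje Trib1 lines against 684, 650.2 and 626 in Ts1Cje cells. Its groups did not overlap, and the difference was 0.24 (SE 0.05, adjusted p = 0.000778). A dimmer probe set of Psmd7, fitted on its own, gave 0.24 (adjusted p = 0.00305) on the Ts1Cje background and -0.24 (adjusted p = 0.00322) on the B6 background. The ubiquitin receptor gene Psmd4 differed by 0.10 (SE 0.03, adjusted p = 0.0232) on the B6 background and by 0.08 (SE 0.03, adjusted p = 0.0623) on the Ts1Cje background. The first was lost without B6 replicate 3 or B6 Trib1 replicate 2, at 0.09 and 0.08. Without Ts1Cje Trib1 replicate 3 the second passed, at 0.10. Psmd14 averaged 2584 ± 142 in Ts1Cje Trib1 lines against 2485 ± 60.01 in Ts1Cje cells, and 2588 ± 40.2 in B6 Trib1 lines against 2443 ± 27.6 in B6 cells (SD, n = 3 each). Its differences had 95% intervals of -0.03 to 0.14 and 0.0015 to 0.16 and did not pass (adjusted p = 0.277 and 0.0948), while without Ts1Cje Trib1 replicate 3 the second, 0.08, did. It also passed with median centring, at 0.20 (adjusted p = 0.00355), and with a variance trend and robust moderation (adjusted p = 0.035). The remaining genes called on 1 background were Psma1, Psmb1 and Psmd11, higher in Ts1Cje Trib1 lines than in Ts1Cje cells, and Psmc3, Psmd2, Psmd8 and Psmd13, lower there, with differences between -0.18 and 0.13. On the B6 background, other probe sets of Psmd11 fitted singly gave opposite calls, at 0.20 (adjusted p = 0.00868) and -0.21 (adjusted p = 0.00213). Psmd1 was lower in B6 Trib1 lines than in B6 cells, with a log2 difference of -0.19 (SE 0.05, adjusted p = 0.00785), or -0.07 (adjusted p = 0.314) with median centring. Summed over the 7 kept of 8 proliferation genes, the intensity was 12636 to 13069 in Ts1Cje Trib1 lines, 13691 to 13823 in B6 Trib1 lines, 11729 to 12089.5 in Ts1Cje cells, against 12973 to 13118 in B6 cells, and its part in these calls was not tested.

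**Figure D4:**
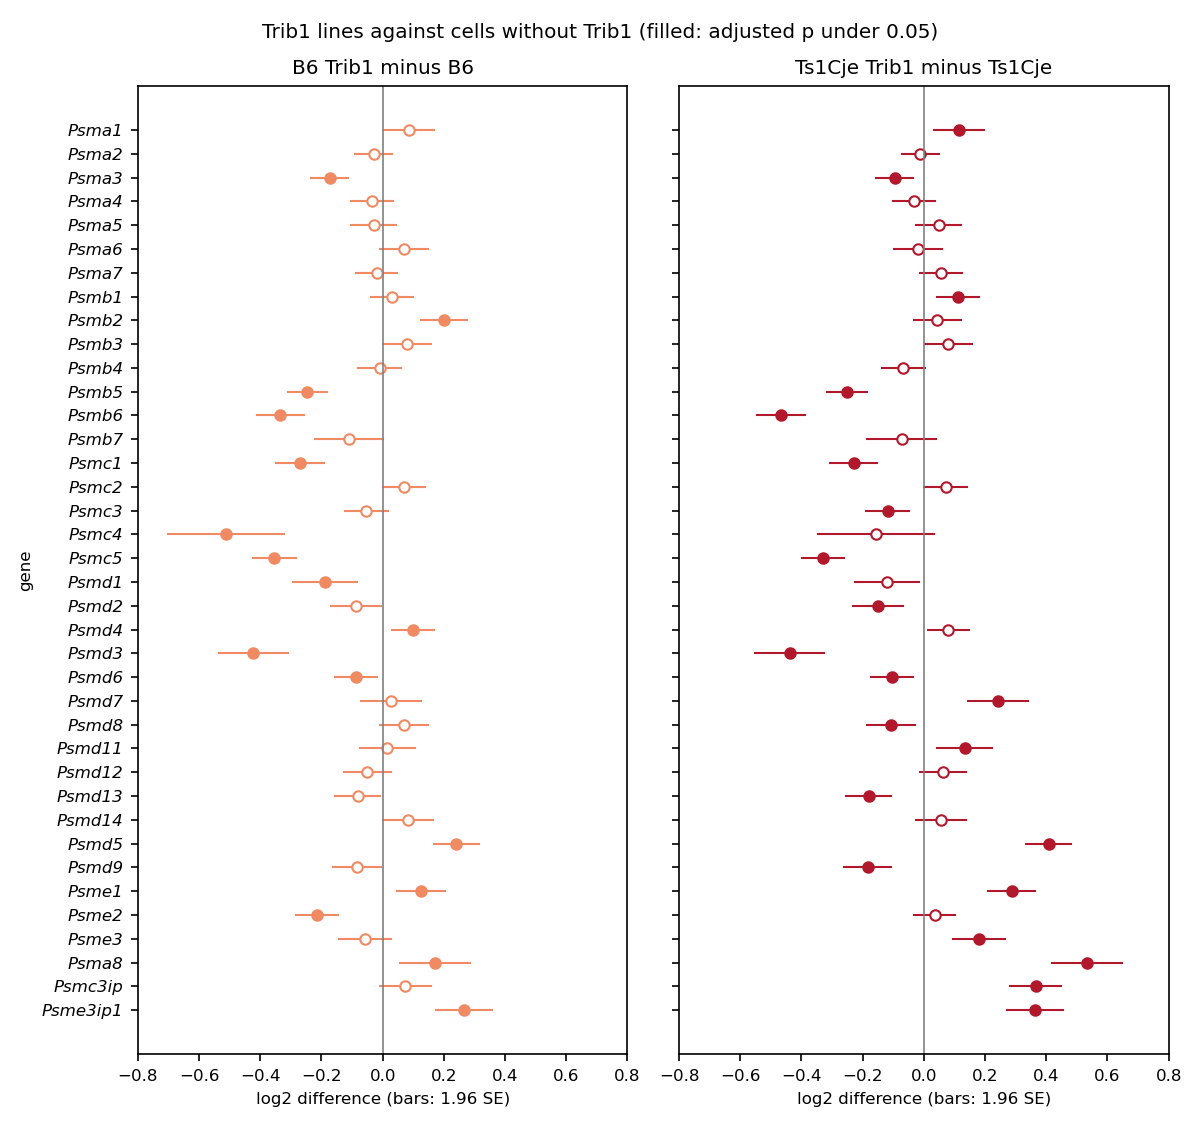
Log2 difference (x axis) of each of the 38 proteasome subunit genes (y axis, by role) in B6 Trib1 minus B6 and in Ts1Cje Trib1 minus Ts1Cje. Bars are 95% intervals, and genes with an adjusted p under 0.05 are filled. Most points lie close to 0, and Psmb6, Psmd3 and Psmc5 reach -0.47, -0.44 and -0.33 in Ts1Cje Trib1 minus Ts1Cje.

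The next question was how the trisomic background differs from B6 in hematopoietic cells without Trib1. Between Ts1Cje and B6 cells, 3 of 38 genes were higher and 6 lower, 23.7% in all, beside 52.6% of all genes (23.3% higher and 29.3% lower). The median was -0.02, beside 0.01 for all genes. With median centring the median of all genes was 0.11 and 13 members were higher and 2 lower, or 34.2% and 5.26%, beside 44.6% and 19% of all genes. Called in the same direction under all 3 scalings were Psmb2, Psmd8 and Psmd9, which were higher, and Psmc3ip and Psmc4, which were lower (22.1% and 19% of all genes). Of the members, Psmd2 lies on chromosome 16, outside the trisomic segment, and its difference was -0.02 (SE 0.04, adjusted p = 0.731).

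Psmd8, of the lid, read 1663, 1629 and 1738 in Ts1Cje cells, against 1403, 1499 and 1440.2 in B6 cells. The groups did not overlap, and the difference was 0.21 (SE 0.04, adjusted p = 0.000745). Psmb2 read 1384, 1436 and 1517 in Ts1Cje cells, against 1245, 1273 and 1270.4 in B6 cells. Here too every Ts1Cje array was above every B6 array, and the difference was 0.19 (SE 0.04, adjusted p = 0.00106). Psmd9 differed by 0.13 (SE 0.04, adjusted p = 0.0165), and without B6 replicate 3 or Ts1Cje replicate 3 the call was lost, at 0.11 and 0.10. Averaging its probe sets also lost the call, at 0.08 (adjusted p = 0.0889). Among the genes that fell, Psmc3ip read 152, 144 and 151 in Ts1Cje cells, against 193, 192 and 191 in B6 cells. Its groups lay well apart, and its difference was -0.34 (SE 0.04, adjusted p = 2.73e-05). Psmc4 read 2386, 1922 and 1803 in Ts1Cje cells, against 2503, 2603 and 2683 in B6 cells. The 3 Ts1Cje arrays were spread widely and all below the B6 arrays, with a difference of -0.36 (SE 0.10, adjusted p = 0.0077), and its second probe set gave -0.06 (adjusted p = 0.193).

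The other falls were small and depended on the processing. Psma3 differed by -0.11 (SE 0.03, adjusted p = 0.0106) and by -0.01 (adjusted p = 0.852) with median centring, and Psmd12, of the lid, by -0.11 (SE 0.04, adjusted p = 0.029) and by -0.01 (adjusted p = 0.785). Psmd12 lost its call without B6 replicate 2 or 3 or Ts1Cje replicate 2 or 3, at -0.10 to -0.09. Psmd11, a lid subunit, differed by -0.15 (SE 0.05, adjusted p = 0.0162), by 0.020 (adjusted p = 0.649) when its probe sets were averaged, and its kept probe sets gave calls in opposite directions when fitted singly. Without B6 replicate 1 or Ts1Cje replicate 3 its call was lost, at -0.13 to -0.12. Psme1 differed by -0.10 (SE 0.04, adjusted p = 0.0492), and its call was lost under 6 other settings, among them median centring, at -0.002 (adjusted p = 0.971). The call was also lost without any of 8 arrays, namely all 3 of B6, Ts1Cje replicates 1 and 2, B6 Trib1 replicates 1 and 2 and Ts1Cje Trib1 replicate 1, at -0.11 to -0.08. Among the catalytic genes, Psmb6 read 1641, 1641 and 1679.7 in Ts1Cje cells, against 1551, 1586 and 1554 in B6 cells. These arrays did not overlap, but the difference of 0.08 (SE 0.04, adjusted p = 0.101) did not pass, and it was 0.18 (adjusted p = 0.00656) with median centring. Psmb5 differed by 0.04 (SE 0.03, adjusted p = 0.318) and by 0.14 (adjusted p = 0.00872) with median centring. Psmb7, Psmd4, Psmd14, Psme2, Psme3, Psma8 and Psme3ip1 were not called, with differences of 0.02, -9.8e-05, 0.02, -0.08, -0.09, 0.10 and -0.08. With probe sets averaged, Psme3 passed at -0.21 (adjusted p = 0.0103) and Psmd4 at 0.098 (adjusted p = 0.0419). Psma8 passed with median centring, at 0.19 (adjusted p = 0.00887), and Psme2 with a variance trend and robust moderation (adjusted p = 0.0307).

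The same question was asked of the leukaemia lines. Between Ts1Cje Trib1 and B6 Trib1 lines, 3 of 38 genes were higher and 0 lower, 7.89% in all, beside 21.5% of all genes (11.9% higher and 9.63% lower). Under all 3 scalings 2 were higher (10% of all genes) and 0 lower (9.02%). At an unadjusted p under 0.05 in limma, 4 members were higher and 0 lower, beside 18.1% and 14.4% of all genes. The median was 0.01, beside 0.00 for all genes. Psme2, Psma8 and Psme3 were the genes called, and none of the 30 constitutive subunits was, each read from its probe set of highest mean. Dimmer probe sets of the lid genes Psmd7 and Psmd11, fitted singly, did pass, at 0.25 (adjusted p = 0.00849) and 0.17 (adjusted p = 0.0258). Psme2 read 1619, 1680.0 and 1613 in Ts1Cje Trib1 lines, against 1462, 1469.9 and 1417 in B6 Trib1 lines. The groups did not overlap, and the difference was 0.17 (SE 0.03, adjusted p = 0.00241). Psma8 read 40.8, 43.8 and 49.1 in Ts1Cje Trib1 lines, against 27.2, 28.7 and 29.0 in B6 Trib1 lines. All 3 Ts1Cje Trib1 arrays were above the B6 Trib1 arrays, with a difference of 0.46 (SE 0.06, adjusted p = 6.95e-05). Psme3 read 373, 355 and 386 in Ts1Cje Trib1 lines, against 337, 331 and 330.0 in B6 Trib1 lines. Its arrays did not overlap, and its difference was 0.15 (SE 0.04, adjusted p = 0.024), which was 0.13 (adjusted p = 0.0546) with quantile normalization and 0.15 (adjusted p = 0.0534) with median centring. Without any array of B6 Trib1, or without replicate 1 or 3 of Ts1Cje Trib1, it did not pass, at 0.13 to 0.16.

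The catalytic genes were not called between the lines. Psmb5 differed by 0.04 (SE 0.03, adjusted p = 0.516), with a 95% interval of -0.03 to 0.10, Psmb6 by -0.05 (SE 0.04, adjusted p = 0.415), with -0.13 to 0.03, and Psmb7 by 0.06 (SE 0.06, adjusted p = 0.555), with -0.06 to 0.17. Psme1 differed by 0.06, Psmd4 by -0.02, Psmd14 by -0.0037, Psmc3ip by -0.04 and Psme3ip1 by 0.02, none of which passed. The genotype differences without and with Trib1 share no arrays, and no member was called in both. With 9 and 3 of 38 members called, little or no overlap would be found in any case. The share of all genes called in both is not given here, so the absence is no result about the members.

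Whether the genotype difference itself depends on Trib1 was tested by the interaction, the difference between Ts1Cje Trib1 and B6 Trib1 lines minus that between Ts1Cje and B6 cells. It passed in 8 members with a positive and 2 with a negative sign, 26.3% in all, beside 48.6% of all genes (28.4% positive and 20.2% negative). With median centring the split turned to 2 positive and 8 negative, beside 18.8% positive and 34.2% negative of all genes, and the median of all genes was -0.10 in place of 0.01. The signs that passed under all 3 scalings were positive for Psma8 and Psmc3ip and negative for Psmb2 and Psmd8 (18.6% and 19.2% of all genes). Without B6 replicate 1 or 2, 5 members were positive. The negative count was 0 without B6 replicate 1 or Ts1Cje replicate 3, and 1 without B6 replicate 3, B6 Trib1 replicate 1 or 2, or Ts1Cje Trib1 replicate 1 or 3.

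The interaction of Psma8 was 0.36 (SE 0.08, adjusted p = 0.0029), on the dim values given above. For Psmc3ip it was 0.29 (SE 0.06, adjusted p = 0.00161), where Ts1Cje cells were low and the other 3 groups close to each other. For Psmb2 it was -0.16 (SE 0.05, adjusted p = 0.0318), and here B6 cells were the low group. That call was lost without B6 replicate 1 or 3, Ts1Cje replicate 3, B6 Trib1 replicate 1 or 2 or any array of Ts1Cje Trib1, at -0.16 to -0.12. For Psmd8 it was -0.18 (SE 0.06, adjusted p = 0.0202), lost without B6 replicate 1 or Ts1Cje replicate 3, at -0.16 and -0.15. Among the activators, the interaction was 0.25 (SE 0.05, adjusted p = 0.000982) for Psme2, 0.24 (SE 0.06, adjusted p = 0.00694) for Psme3 and 0.16 (SE 0.06, adjusted p = 0.03) for Psme1, and with median centring it was 0.15 (adjusted p = 0.0501), 0.13 (adjusted p = 0.122) and 0.06 (adjusted p = 0.503). Psme1 also lost it without B6 replicate 1 or 2, Ts1Cje replicate 1 or 2, B6 Trib1 replicate 2 or 3, or Ts1Cje Trib1 replicate 2, at 0.14 to 0.16. For Psmc4 it was 0.35 (SE 0.14, adjusted p = 0.0471), lost under 6 other settings. Among these it was 0.25 (adjusted p = 0.0781) with median centring and 0.02 (adjusted p = 0.725) without probe sets of suffix _s, _x or _a. Its call was also lost without any of 9 arrays, all but Ts1Cje replicate 1, B6 Trib1 replicate 3 and Ts1Cje Trib1 replicate 3, at 0.27 to 0.38. The interaction of Psmd7 was 0.22 (SE 0.07, adjusted p = 0.0229) and that of Psmd5 0.17 (SE 0.05, adjusted p = 0.0195), and with median centring both calls were lost, at 0.11 (adjusted p = 0.152) and 0.06 (adjusted p = 0.439). For the catalytic genes Psmb5, Psmb6 and Psmb7 it was -0.0048, -0.13 and 0.04, for Psmd4 -0.02, for Psmd14 -0.03 and for Psme3ip1 0.10, none of which passed. With its probe sets averaged, Psmd4 passed at -0.15 (adjusted p = 0.0291). Psmb6 passed with median centring, at -0.24 (adjusted p = 0.0119), with a variance trend and robust moderation (adjusted p = 0.0286), and without Ts1Cje Trib1 replicate 2, at -0.16, and Psme3ip1 without B6 Trib1 replicate 2, at 0.15.

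In the immunoproteasome, Psmb8, Psmb9 and Psmb10 replace Psmb5, Psmb6 and Psmb7. Each such pair was compared as the log2 ratio of the immunoproteasome to the constitutive gene within an array, with the B6 mean set to 0, because levels of different probe sets cannot be compared. The ratio of Psmb8 to Psmb5 was 0.23, 0.28 and 0.24 in Ts1Cje Trib1 lines, 0.11, 0.21 and 0.14 in B6 Trib1 lines and -0.17, -0.13 and -0.09 in Ts1Cje cells, against 0.01, 0.02 and -0.04 in B6 cells. It was highest in the Ts1Cje Trib1 lines and lowest in the Ts1Cje cells, which differed by 0.38, and no neighbouring groups overlapped. In limma, Psmb8 itself differed by 0.13 (adjusted p = 0.00917) between Ts1Cje Trib1 lines and Ts1Cje cells. Between B6 Trib1 lines and B6 cells Psmb8 was at -0.09 (adjusted p = 0.0518), which did not pass, while Psmb5 fell in both lines. The ratio of Psmb9 to Psmb6 was 0.39, 0.24 and 0.38 in Ts1Cje Trib1 lines, 0.11, 0.0009 and 0.06 in B6 Trib1 lines and -0.17, -0.24 and -0.18 in Ts1Cje cells, against -0.01, 0.0028 and 0.01 in B6 cells. The Ts1Cje Trib1 lines exceeded the Ts1Cje cells by 0.53, and B6 Trib1 lines overlapped B6 cells, with a difference of 0.06 (exact permutation p = 0.3). In limma, Psmb9 itself was not called between Ts1Cje Trib1 lines and Ts1Cje cells, at 0.07 (adjusted p = 0.182). It fell between B6 Trib1 lines and B6 cells, at -0.28 (adjusted p = 5.8e-05), and Psmb6 fell in both lines.

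The third pair went the other way. The ratio of Psmb10 to Psmb7 was -0.45, -0.31 and -0.37 in Ts1Cje Trib1 lines, -0.26, -0.27 and -0.35 in B6 Trib1 lines and 0.03, -0.04 and 0.02 in Ts1Cje cells, against -0.16, 0.07 and 0.09 in B6 cells. Lines were lower than cells by a log2 difference of -0.38 on the Ts1Cje background and -0.29 on the B6 background, without overlap, and the genotypes overlapped with and without Trib1. Over 12 such comparisons, the 9 without overlap each had an exact permutation p of 0.1, two-sided, the smallest that 3 arrays against 3 can give, and an adjusted p of 0.133.

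**Figure D5:**
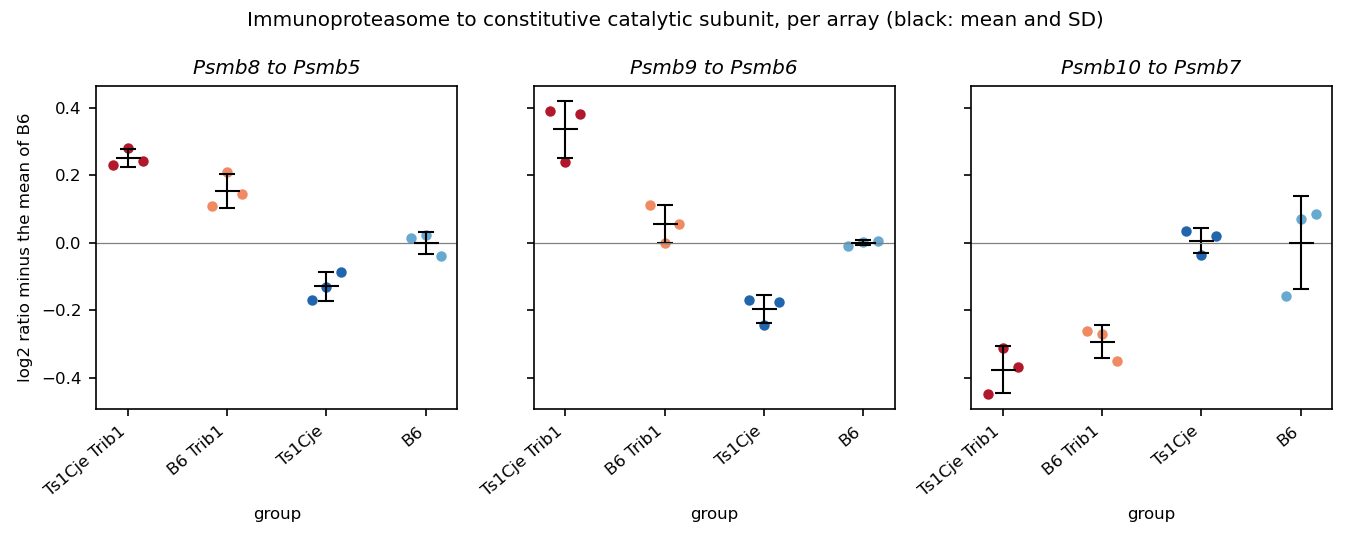
Log2 ratio of the immunoproteasome gene to the constitutive gene in each array (points), by group, with the B6 mean set to 0 and bars at the group means. Psmb8 to Psmb5 and Psmb9 to Psmb6 are highest in Ts1Cje Trib1 lines, and Psmb10 to Psmb7 is lower in both Trib1 lines than in both kinds of cells.

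Genes that build, regulate or serve the proteasome but are no members were read from a separate list. Of these, 26 passed the filter, Psmb8, Psmb9 and Psmb10 among them. Between B6 Trib1 lines and B6 cells 4 were higher and 12 lower, and between Ts1Cje Trib1 lines and Ts1Cje cells 10 were higher and 6 lower, where 65.2% and 60.8% of all genes were called. Between Ts1Cje and B6 cells 4 were higher and 11 lower, between Ts1Cje Trib1 and B6 Trib1 lines 6 were higher and 0 lower, and the interaction was positive in 13 and negative in 4, where 52.6%, 21.5% and 48.6% of all genes were called. Upstream of the subunit genes stands NFE2L1, a transcription factor that raises proteasome genes when proteasome activity falls short, after NGLY1 has removed its sugars. Nfe2l1 read 302, 317 and 306 in Ts1Cje Trib1 lines against 459, 441 and 448 in Ts1Cje cells, and 286, 296 and 280.3 in B6 Trib1 lines against 442, 433 and 437 in B6 cells. All lines were below all cells, with differences of -0.52 (SE 0.04, adjusted p = 1.83e-08) and -0.58 (SE 0.04, adjusted p = 8.38e-09). Ngly1 read 763, 753 and 759 in Ts1Cje Trib1 lines against 453, 467 and 467 in Ts1Cje cells, and 691, 685 and 695 in B6 Trib1 lines against 479, 495 and 460.0 in B6 cells. Here the lines were the higher groups without overlap, with differences of 0.70 (SE 0.04, adjusted p = 7.71e-10) and 0.52 (SE 0.04, adjusted p = 2.82e-08).

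Zfand2a, which encodes a proteasome-binding protein induced by arsenite, differed by -0.89 (SE 0.04, adjusted p = 1.22e-10) between Ts1Cje Trib1 lines and Ts1Cje cells and by -0.62 (SE 0.04, adjusted p = 8.87e-09) between B6 Trib1 lines and B6 cells. Summed over the 7 kept of 9 heat shock and proteotoxic stress genes, the intensity was 11628 to 11948 in Ts1Cje Trib1 lines, 10958 to 11759 in B6 Trib1 lines, 11143 to 11769 in Ts1Cje cells, against 12749 to 12935 in B6 cells. The sum hides opposite changes, with 2 of these genes called higher and 3 lower in Ts1Cje Trib1 lines than in Ts1Cje cells. On the B6 background 2 were higher and 5 lower in the lines. Hmox1 averaged 86.8 in Ts1Cje Trib1 lines against 903 in Ts1Cje cells, and Hsp90aa1 3825 against 2850. Ubqln4, of the ubiquilins that carry ubiquitin-tagged proteins to the proteasome, read 274, 246 and 281 in Ts1Cje cells, against 427, 416 and 408 in B6 cells, and 293, 274 and 238 in Ts1Cje Trib1 lines, against 264, 260.2 and 257 in B6 Trib1 lines. B6 cells were the high group, and the difference was -0.62 (SE 0.07, adjusted p = 5.38e-06) between Ts1Cje and B6 cells, -0.65 (SE 0.07, adjusted p = 1.45e-06) between B6 Trib1 lines and B6 cells, and 0.65 (SE 0.09, adjusted p = 8.11e-05) in the interaction. The ubiquitin ligase gene Ube3c differed by 0.51 (SE 0.06, adjusted p = 2.36e-06) between Ts1Cje Trib1 lines and Ts1Cje cells. Between Ts1Cje and B6 cells, Ecpas, which encodes a scaffold on the proteasome, differed by -0.40 (SE 0.05, adjusted p = 1.21e-05) and the ligase gene Ube3a by -0.38 (SE 0.07, adjusted p = 0.000809).

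Of the chaperones that assemble the core, Psmg1 lies in the trisomic segment. It read 1033, 1072 and 1054 in Ts1Cje cells, against 829, 841 and 834 in B6 cells, and 1028, 1029.7 and 1084 in Ts1Cje Trib1 lines, against 751, 747 and 748 in B6 Trib1 lines. Both Ts1Cje groups were above both B6 groups in every array, with differences of 0.33 (SE 0.03, adjusted p = 4.61e-06) without and 0.48 (SE 0.03, adjusted p = 3.39e-07) with Trib1. Psmg2, its partner, read 705, 663 and 661 in Ts1Cje cells, against 911, 863 and 921 in B6 cells, and 951, 945 and 965 in Ts1Cje Trib1 lines, against 831, 785 and 818 in B6 Trib1 lines. Its difference was -0.40 (SE 0.04, adjusted p = 3.52e-06) between the cells and 0.23 (SE 0.04, adjusted p = 0.00106) between the lines, without overlap in either comparison. Psmg4 differed by 0.22 (SE 0.05, adjusted p = 0.00404) and Psmb9 by 0.23 (SE 0.04, adjusted p = 0.00121) between Ts1Cje Trib1 and B6 Trib1 lines.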

How the data were processed

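The authors deposited, for each of 12 arrays, the intensity of 45141 probe sets on a linear scale. The submitters' processing notes name MAS5, without a version, scaling target or genome build, and MAS5 uses mismatch probes that an array with perfect-match probes alone lacks, so the summary and scaling of these values stay unknown. Gene symbols came from GEO's platform annotation, and RefSeq tables on GRCm38.p6 gave chromosomes and promoters. Of the probe sets, 28898 carried 1 symbol, 551 several, 15588 none and 104 were controls, and only the first kind was tested.

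A probe set was kept if it exceeded its array's 40th percentile (22.0 to 23.5) in at least 3 arrays, and a gene was read from its kept probe set of highest mean. The deposited intensities were turned into log2(intensity + 15), an offset near the 20th percentile of all values, and fold sizes of dim genes are understated on this scale. limma 3.58.1 in R 4.3.3 fitted 1 mean per group to all 12 arrays, with two-sided tests adjusted by Benjamini and Hochberg over 12560 genes. The fit was tested on simulated data. Ratios within an array were compared by an exact permutation test.

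Within-group correlations between arrays were 0.997 to 0.999 over 12 pairs. Deviations of same-numbered arrays correlated from -0.45 to 0.35 over 18 pairs, and 3 of 12 arrays resembled their own number best, so replicate numbers were not used as pairs. Named genes were, per contrast, up to 6 called rises and 6 called falls without overlap, up to 4 of each sign in the interaction, the catalytic, activator, Psmd4 and Psmd14 genes, those outside the constitutive particle, and up to 4 related genes, while further members are named where counts are listed. The members, lists, tests and alternatives were chosen with earlier results of these data known. Tried as alternatives were median centring and quantile normalization, a floor or an offset of 1, a filter at the 60th percentile or none, the average of all kept probe sets of a gene, no probe sets with the suffix _s, _x or _a, which mark several genes, cross-hybridization or several transcripts, robust moderation with a variance trend, a fit to the compared groups alone, the replicate block, and each array left out. Alternatives for the ratios, the comparison of calls over 3 scalings and single probe sets were added after seeing the data.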

Additional observations from a re-analysis of the deposited data

Results flagged for a closer look

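A genotype difference that was not the same with and without Trib1, by the interaction test in limma adjusted over all genes, was found in 10 members, 26.3% of 38, beside 48.6% of all genes. The interaction was 0.36 for Psma8, 0.35 for Psmc4, 0.29 for Psmc3ip, 0.25 for Psme2, 0.24 for Psme3, 0.22 for Psmd7, 0.17 for Psmd5 and 0.16 for Psme1. For Psmb2 it was -0.16 and for Psmd8 -0.18. Psma8, Psmc3ip, Psmb2 and Psmd8 passed under all 3 scalings, and the other 6 lost the call with median centring. Of the named related genes, Ubqln4 had an interaction of 0.65, Psmg2 of 0.63, Ube3a of 0.44 and Psmg3 of 0.41. Groups of 3 arrays are too small for a test of single outlying arrays.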

How the results depend on the processing

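Of the values of named genes under an alternative, 2086 kept their direction and side of the threshold, 81 lost the call, 21 gained it and 1 turned its sign: Psmd11 in Ts1Cje minus B6, 0.020 with the mean of its probe sets, whose probe sets disagree. With median centring, members called were 13 higher and 2 lower in Ts1Cje minus B6, 18 higher in B6 Trib1 minus B6, and 2 positive and 8 negative in the interaction. Without probe sets of suffix _s, _x or _a, 2 were lower in Ts1Cje minus B6. Psma3, Psma5, Psmb1, Psmb5, Psmd4, Psmd12, Psmd13 and Psmd14 have only such probe sets and were not tested in that setting. With a variance trend and robust moderation, 10 were higher in B6 Trib1 minus B6. Leaving out each array in turn gave 2 to 4 members higher and 4 to 7 lower in Ts1Cje minus B6, 2 to 3 higher and 0 lower in Ts1Cje Trib1 minus B6 Trib1, 3 to 7 higher and 9 to 10 lower in B6 Trib1 minus B6, 8 to 11 higher and 10 to 13 lower in Ts1Cje Trib1 minus Ts1Cje, and 5 to 8 positive and 0 to 2 negative in the interaction. The lowest count of members higher in B6 Trib1 minus B6, 3, came without B6 replicate 3. With the replicate number as a block, 3 were higher and 5 lower in Ts1Cje minus B6, and 6 higher and 9 lower in B6 Trib1 minus B6. The block left the counts of Ts1Cje Trib1 minus Ts1Cje at 10 and 12 and gave 7 positive and 2 negative in the interaction. The longer response element was in 9.38% of the member genes with a promoter, against 59.4% for the shorter. Except for the probe sets named, the cause of these changes was not tested. Most members are bright, while Psma8 lies near the filter's threshold and Psmb11 below it. The counts of calls depended on the scaling, and 3 arrays per group limit the precision of all members.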
